A study of Mus musculus with 10 samples.

Results

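This account covers the nuclear receptors that sense fatty acids and sterols in the liver, with the receptors and the coactivator that work beside them. The members are all probe sets that the platform annotation gives to exactly 1 of 10 genes, Ppara, Ppard, Pparg, Nr1h2, Nr1h3, Rxra, Rxrb, Nr5a2, Esrra and Ppargc1a. The rule found 22 probe sets of 45037, for 9 of the 10 genes, and Nr1h2 was not analysed here. Of the 22, 19 lay above the filter on low values, and each of the 9 genes kept at least 1, among 12736 genes tested. The filter uses the mean over all arrays, and no member gene passed it through 1 group alone.

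RNA came from the liver of 10 mice labelled ApoE-/-, a genotype that removes apolipoprotein E and raises cholesterol-rich lipoproteins in blood. In 5 mice an adenovirus delivered a dominant negative form of cJun, which pairs with other proteins to form the transcription factor AP-1 (labelled dn-cJun, arrays 16 to 20), and in the other 5 a control adenovirus delivered GFP, a fluorescent protein (control, arrays 11 to 15). Each mouse had its own Affymetrix mouse array. The sources used here do not give the promoter in the viruses, their dose, the time after infection, or the strain background, age and sex of the animals.

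The data did not match the labels in some respects. Apoe, which this genotype should lack in all 10 mice, had log2 values of 15.31 to 15.82 on the arrays labelled dn-cJun and 9.42 to 10.94 on the control arrays (a difference of 5.41, SE 0.22, limma adjusted p = 2.57e-08), so every comparison below is between groups that also differ in Apoe signal. Jun differed by -0.066 (limma adjusted p = 0.890), and where the array reads Jun relative to the delivered form is not known here. All differences are on the log2 scale, labelled dn-cJun minus control. Control arrays 14 and 15 stood apart in sex-linked transcripts, with Xist at 13.71 and 13.63 against 5.90 to 6.72 on the other 8 arrays and Eif2s3y at 5.22 and 4.08 against 10.58 to 11.13, so values without them are given for each member gene. Each of the 6 hepatocyte markers measured lay above the filter, with a summed intensity of 237750 to 264670 on the arrays labelled dn-cJun and 219250 to 246540 on the control arrays. All 6 were higher in the mice labelled dn-cJun, where 50.3% of all genes tested were, and 0 had a limma adjusted p under 0.05. Tat (0.79) and Hnf4a (0.21) had an unadjusted limma p under 0.05, as did 14.9% of all genes. Without controls 14 and 15 all 6 were higher and 0 had an unadjusted limma p under 0.05. The median deposited intensity was 85.3 to 98.8 on the arrays labelled dn-cJun and 89.8 to 127.5 on the control arrays.

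PPARalpha, PPARdelta and PPARgamma (Ppara, Ppard, Pparg) are activated by fatty acids and their derivatives, and the liver X receptors (Nr1h2, Nr1h3) by oxysterols. All of them bind DNA as heterodimers with a retinoid X receptor (Rxra, Rxrb). In hepatocytes PPARalpha drives fatty acid oxidation and ketogenesis during fasting, and the liver X receptors drive sterol efflux and lipogenesis. Nr5a2 (LRH-1) binds as a monomer to genes of bile acid synthesis, Esrra (ERRalpha) controls mitochondrial genes, and Ppargc1a (PGC-1alpha) is a coactivator that docks on PPARalpha, ERRalpha and other receptors.

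None of the 9 genes changed past the threshold between the mice labelled dn-cJun and the control mice. Over all genes tested, 0.777% passed (limma, Benjamini-Hochberg adjusted p under 0.05, 99 of 12736), and among the member genes the smallest adjusted p was 0.310, for Rxra. At an unadjusted p under 0.05, 1 of the 9 passed, where 14.9% of all genes did. Of the 9, 5 were higher and 4 lower in the mice labelled dn-cJun, where 50.3% of all genes were higher, with a median difference of 0.12, beside a median of 0.0015 over all genes tested. The 95% intervals of the 9 genes together ran from -0.86 to 0.65 on the log2 scale, or 0.551-fold to 1.57-fold, so smaller differences in either direction may have gone undetected with 5 arrays a group. Without controls 14 and 15, 6 of the 9 were higher with a median of 0.18 and none passed, where 0.408% of all genes did.

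The same held probe set by probe set. None of the 22 passed in the fit over all 45037 probe sets, where 0.329% did, and 3 of 22 (13.6%) had an unadjusted p under 0.05, where 10.5% of all probe sets did. Group ranges did not overlap for 1 of the 22 (4.55%), beside 2.59% of all probe sets. At an adjusted threshold of 0.1, 1 of the 22 passed, where 0.711% of all probe sets did. Of the 22, 15 were higher and 7 lower in the mice labelled dn-cJun, where 50.3% of all probe sets were higher, but probe sets of a gene share their target and are not independent.

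**Figure D1:**
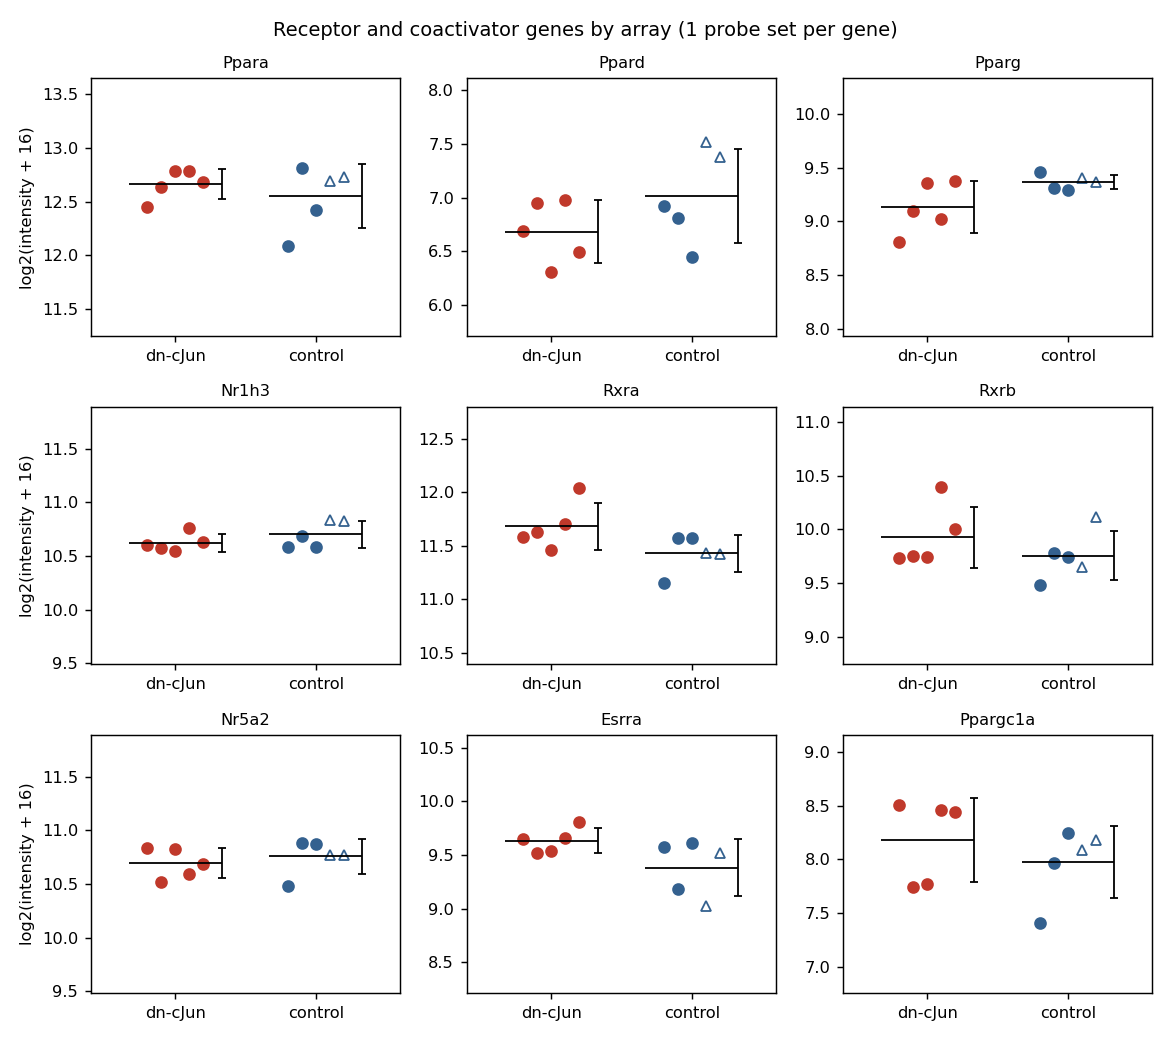
Log2(intensity + 16) after quantile normalization on each array (y axis, a span of 2.4 log2 units in every panel) for the probe set that represents each gene, with the arrays labelled dn-cJun in red and the control arrays in blue. Open triangles are control arrays 14 and 15, horizontal lines are means and bars are the SD (n = 5); the groups overlap in all 9 panels, and Ppard is highest on the 2 open triangles.

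Promoter sequences are shown for 4 genes because cJun acts through AP-1 sites in DNA and because receptors of this class often regulate each other's genes. Windows of 250 bases before to 50 bases after an annotated start were read from RefSeq (GRCm38.p6), and all 10 genes matched, with 16 windows. The AP-1 letters TGANTCA, the same on both strands, occurred in 0 of the 16 windows and in 7.81% of all 32851 windows of this length. The core hexamer of these receptors, AGGTCA, searched on both strands as AGGTCA or TGACCT, occurred in 4 of 16 windows, belonging to Pparg, Rxra and Nr5a2, and in 16.3% of all windows. A direct repeat of this hexamer with a spacer of 1 base, the element known for PPAR and RXR pairs, occurred in 0 of the 16 and in 0.0396% of all windows. The longer element TCAAGGTCA, which contains the hexamer and to which Esrra and Nr5a2 are known to bind, occurred in 0 of the 16 and in 0.423% of all windows, both strands counted. A window without a match says only that these letters are not in it. Capitals mark the hexamers, whose first bases lie at -28 from the start in the first Pparg window and at -87 and -48 in the second Rxra window. The Ppara and Ppargc1a windows, shown because these genes have the probe sets with the smallest p, held none.
Ppara (chr15:85735526-85735825, plus strand): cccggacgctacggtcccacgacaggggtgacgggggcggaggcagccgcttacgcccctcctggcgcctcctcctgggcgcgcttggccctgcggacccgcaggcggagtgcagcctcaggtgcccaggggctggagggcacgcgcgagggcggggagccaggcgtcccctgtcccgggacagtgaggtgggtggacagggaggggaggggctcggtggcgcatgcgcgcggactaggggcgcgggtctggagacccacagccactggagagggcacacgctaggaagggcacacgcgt
Pparg (chr6:115360894-115361193, plus strand): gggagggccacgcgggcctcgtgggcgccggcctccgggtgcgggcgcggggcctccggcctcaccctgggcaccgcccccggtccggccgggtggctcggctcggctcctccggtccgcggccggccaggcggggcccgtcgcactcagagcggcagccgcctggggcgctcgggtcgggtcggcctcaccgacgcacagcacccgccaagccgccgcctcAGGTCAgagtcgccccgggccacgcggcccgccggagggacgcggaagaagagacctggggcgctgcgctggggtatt
Rxra (chr2:27709042-27709341, plus strand): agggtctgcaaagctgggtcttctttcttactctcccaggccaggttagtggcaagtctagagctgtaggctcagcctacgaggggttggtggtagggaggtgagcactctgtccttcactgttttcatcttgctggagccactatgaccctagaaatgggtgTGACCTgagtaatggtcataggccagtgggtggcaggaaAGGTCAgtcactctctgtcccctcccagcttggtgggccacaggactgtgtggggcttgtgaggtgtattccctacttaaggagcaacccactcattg
Ppargc1a (chr5:51567676-51567975, minus strand): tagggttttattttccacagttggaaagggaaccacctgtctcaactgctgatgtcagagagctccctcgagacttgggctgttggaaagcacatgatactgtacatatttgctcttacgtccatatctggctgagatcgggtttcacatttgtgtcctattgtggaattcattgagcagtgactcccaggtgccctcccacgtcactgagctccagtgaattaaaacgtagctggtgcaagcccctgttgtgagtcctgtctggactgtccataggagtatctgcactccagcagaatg

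Among the fatty acid receptors, Ppara was read by 3 probe sets that did not give the same picture. The representing probe set, 1449051_at, had log2 values of 12.45, 12.63, 12.79, 12.78 and 12.68 on arrays labelled dn-cJun 16 to 20, against 12.09, 12.81, 12.42, 12.70 and 12.73 on control arrays 11 to 15. Control array 11 was the lowest and control 12 the highest of the 10, and the groups overlapped. The means were 12.67 ± 0.14 in the mice labelled dn-cJun and 12.55 ± 0.30 in the control mice (SD, n = 5 each), a difference of 0.12 (SE 0.12, 95% interval -0.15 to 0.39, limma adjusted p = 0.712). It was 0.23 without controls 14 and 15 and 0.0017 without control 11, with adjusted p of 0.503 and 0.997 in limma. A second probe set, 1439675_at, differed by -0.025 (SE 0.10, limma adjusted p = 0.960 over all probe sets).

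The third Ppara probe set, 1457721_at, came closest to the threshold of all 22. Its log2 values were 12.01, 11.79, 11.92, 11.95 and 11.91 on arrays labelled dn-cJun 16 to 20, against 11.54, 11.65, 11.41, 11.69 and 11.60 on control arrays 11 to 15. After quantile normalization all 5 arrays labelled dn-cJun were above all 5 control arrays, the only such separation among the members. In the deposited intensities the groups overlapped, at 3151 to 4243.2 on the arrays labelled dn-cJun and 2729.7 to 3562.8 on the control arrays. Means of 11.92 and 11.58 gave a difference of 0.34 (SE 0.07, 95% interval 0.19 to 0.49), 1.27-fold, with a limma adjusted p of 0.0592 over all probe sets and an unadjusted exact permutation p of 0.00794, the smallest that 5 against 5 arrays can give. With probe sets under the 60th percentile left out the adjusted p was 0.0405 in limma, and without controls 14 and 15 it was 0.0980, at a difference of 0.39, where 0.135% of all probe sets passed. The difference was positive in all 23 alternative fits, at 0.15 to 0.39, with limma adjusted p of 0.0405 to 0.484.

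Whether the Ppara probe sets differed from each other was tested within arrays. The log2 value of 1457721_at minus that of 1449051_at was -0.75 ± 0.18 in the mice labelled dn-cJun and -0.97 ± 0.25 in the control mice (SD, n = 5 each), a difference of 0.22 (two-sided exact permutation p = 0.151, adjusted p = 0.503 over 10 such pairs of the 5 genes with several probe sets above the filter). For 1439675_at minus 1449051_at it was -0.37 ± 0.10 in the mice labelled dn-cJun and -0.23 ± 0.08 in the control mice (SD, n = 5 each), a difference of -0.14 with the smallest exact permutation p of the 10 pairs, 0.0397 (adjusted p = 0.357). None of the 10 pairs passed after adjustment. Each pair set a further probe set against the representing one, so 1457721_at and 1439675_at were not compared with each other. The positions of the probe sets in the Ppara transcript are not given in the sources used here.

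Ppard, the widely expressed PPAR, had a representing probe set with log2 values of 6.69, 6.95, 6.30, 6.98 and 6.49 on arrays labelled dn-cJun 16 to 20, against 6.92, 6.81, 6.44, 7.52 and 7.38 on control arrays 11 to 15. Controls 14 and 15 were the highest of the 10 arrays, and the other 3 controls lay within the range of the dn-cJun arrays. Ppard differed by -0.33 (SE 0.25, 95% interval -0.86 to 0.20, limma adjusted p = 0.573) and -0.044 without controls 14 and 15. A further Ppard probe set, 1425703_at, lay below the filter, at log2 values of 4.26 to 4.51 in the mice labelled dn-cJun and 4.27 to 4.34 in the control mice. Ppard also varied most over the 10 arrays among the 9 genes (SD 0.39). Among 12727 other tested genes, the closest profiles over these arrays were those of Il12rb1, Prps1 and Csf1 (Pearson's r of 0.948, 0.941 and 0.929, Spearman's rho of 0.915, 0.939 and 0.879). The r values were 0.916, 0.874 and 0.875 without control 14 and dn-cJun 18, the arrays farthest from the median of Ppard. They are a description with no test, since the genes were picked as the highest of all.

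Pparg, known for adipocyte differentiation and for lipid storage in fatty liver, had log2 values of 8.80, 9.09, 9.36, 9.02 and 9.38 on arrays labelled dn-cJun 16 to 20, against 9.46, 9.31, 9.29, 9.40 and 9.37 on control arrays 11 to 15. The 5 controls were close together, with a SD of 0.067, while 3 of the 5 arrays labelled dn-cJun were below all controls and the other 2 lay within the range of the controls. Pparg averaged 9.13 ± 0.24 in the mice labelled dn-cJun and 9.37 ± 0.07 in the control mice (SD, n = 5 each). The difference was -0.24 (SE 0.11, 95% interval -0.48 to 0.013, limma adjusted p = 0.362), and -0.22 without controls 14 and 15. It was negative in all 24 alternative fits, with limma adjusted p of 0.0739 to 0.546.

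Nr1h3 (LXRalpha), the sterol sensor of hepatocytes and macrophages, had log2 values of 10.60, 10.57, 10.54, 10.76 and 10.63 on arrays labelled dn-cJun 16 to 20, against 10.58, 10.68, 10.58, 10.84 and 10.82 on control arrays 11 to 15. Controls 14 and 15 were again the highest of the 10, and the remaining 8 arrays spanned 10.54 to 10.76. Nr1h3 differed by -0.078 (SE 0.080, 95% interval -0.25 to 0.095, limma adjusted p = 0.698). Without controls 14 and 15 it was 0.0072 (SE 0.088), on the other side of 0.

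Pparg and Nr1h3 are known to be expressed in Kupffer cells, the liver's resident macrophages, as well as in hepatocytes. Some macrophage markers passed the threshold between the groups, but most did not. Of 10 macrophage markers tested, 7 were lower in the mice labelled dn-cJun and 2 passed as lower, where 0.432% of all genes did. Vsig4 (0.049), Marco (0.24) and C1qa (0.026) were higher, and none of these 3 passed. Lyz2, lysozyme, fell by 0.70 and Cd5l, a secreted scavenger receptor relative, fell by 0.57 on the log2 scale (limma adjusted p = 0.0294 and 0.0323). Both were negative in all 24 alternative fits, of which Lyz2 passed in 15 and Cd5l in 11, and of the 10 fits with 1 array left out Lyz2 passed in 3 and Cd5l in 1. The summed intensity of all 11 markers on the array was 25730 to 30629 in the mice labelled dn-cJun and 26857 to 41880 in the control mice, with Timd4 below the filter. Without controls 14 and 15, 5 of 10 were lower and Lyz2 passed at -0.65 (limma adjusted p = 0.0367, against 0.0514 with a term for these arrays), and Cd5l was at -0.49 (limma adjusted p = 0.105). Adipoq, Lep and Retn, 3 of the 4 adipocyte markers measured, lay below the filter. In whole liver, fewer cells of a type and less RNA per cell cannot be told apart, and the part of macrophages in the Pparg and Nr1h3 values was not tested.

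Of the shared heterodimer partners, Rxra had the smallest p of the 9 genes. Its representing probe set, 1454773_at, had log2 values of 11.58, 11.63, 11.46, 11.70 and 12.04 on arrays labelled dn-cJun 16 to 20, against 11.15, 11.58, 11.57, 11.43 and 11.42 on control arrays 11 to 15. Dn-cJun 20 was the highest and control 11 the lowest, and the ranges overlapped between 11.46 and 11.58. Rxra averaged 11.68 ± 0.22 in the mice labelled dn-cJun and 11.43 ± 0.17 in the control mice (SD, n = 5 each), a difference of 0.25 (SE 0.11, 95% interval 0.012 to 0.49, limma adjusted p = 0.310). It was also 0.25 with controls 14 and 15 left out. The unadjusted exact permutation p was 0.0397, and the difference was positive in all 24 alternative fits, at 0.058 to 0.31. With 1 array left out the Rxra difference ran from 0.16 to 0.31, and it passed in none of these fits. A second Rxra probe set, 1425762_a_at, gave 0.15 (SE 0.09, limma adjusted p = 0.620 over all probe sets), and the third, 1430497_at, lay below the filter at 0.19 (SE 0.35).

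Rxrb, the other retinoid X receptor among the members, had log2 values of 9.74, 9.75, 9.74, 10.40 and 10.01 on arrays labelled dn-cJun 16 to 20, against 9.49, 9.78, 9.75, 9.65 and 10.12 on control arrays 11 to 15. The groups overlapped over most of their range, and dn-cJun 19 and control 15 were the highest arrays of their groups. Rxrb differed by 0.17 (SE 0.15, 95% interval -0.14 to 0.48, limma adjusted p = 0.634), by 0.25 without controls 14 and 15, by 0.10 without control 11 and by 0.051 without dn-cJun 19.

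**Figure D2:**
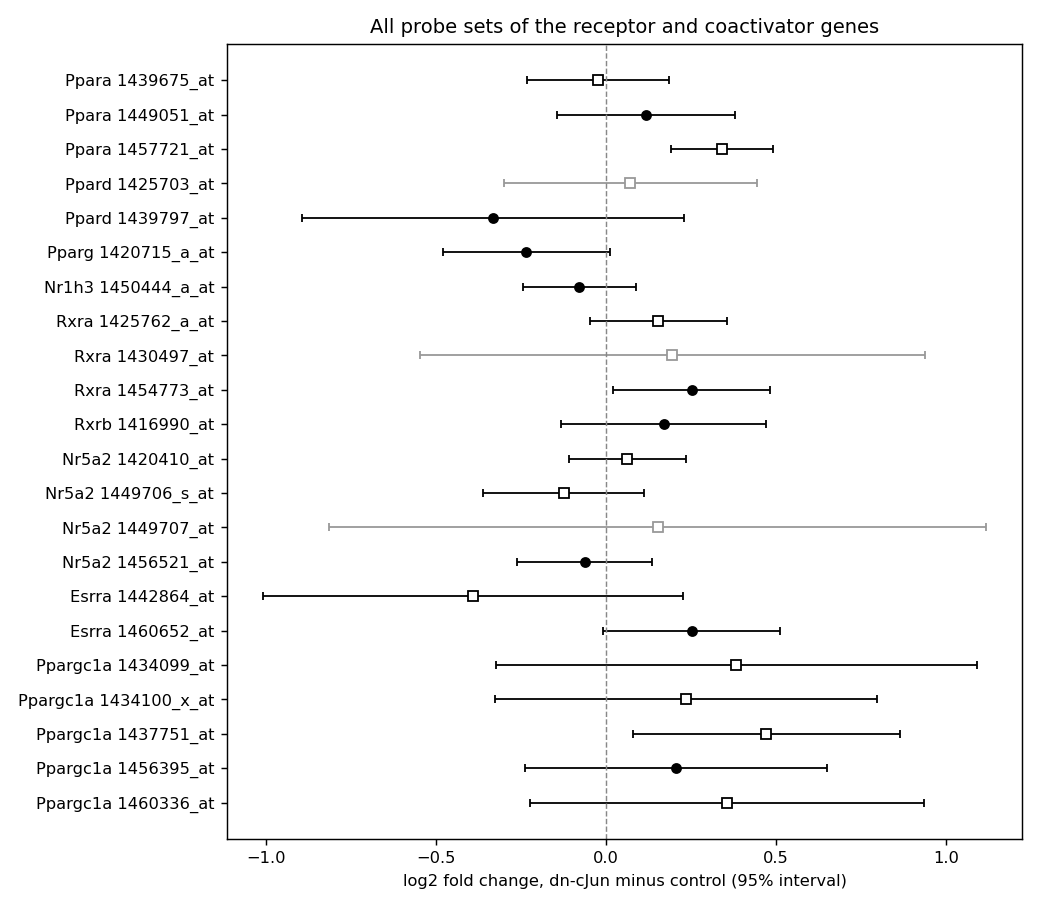
Log2 fold change of every probe set of the 9 genes, mice labelled dn-cJun minus control mice (x axis), with 95% intervals from the fit over all probe sets. Filled circles represent their gene, open squares are further probe sets and the 3 grey ones lay below the filter; the intervals of 1 probe set each of Ppara, Rxra and Ppargc1a do not include 0, and none of the 22 passed after adjustment.

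Nr5a2, a regulator of bile acid and cholesterol genes in hepatocytes, was read by 4 probe sets, 2 higher and 2 lower. Its representing probe set, 1456521_at, had log2 values of 10.84, 10.52, 10.83, 10.59 and 10.69 on arrays labelled dn-cJun 16 to 20, against 10.49, 10.89, 10.88, 10.77 and 10.78 on control arrays 11 to 15. Control 11 was the lowest array, dn-cJun 17, 19 and 20 lay below the other 4 controls, and controls 12 and 13 lay above every array labelled dn-cJun. Nr5a2 differed by -0.063 (SE 0.096, 95% interval -0.27 to 0.14, limma adjusted p = 0.811) and by -0.055 without controls 14 and 15. With 1 array left out Nr5a2 ran from -0.13 (without control 11) to -0.021 (without dn-cJun 17). The further probe sets above the filter gave 0.062 (1420410_at, SE 0.081) and -0.12 (1449706_s_at, SE 0.11), and 1449707_at, below the filter, gave 0.15 (SE 0.45).

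Esrra, an orphan receptor of mitochondrial metabolism, was read by 2 probe sets of opposite sign. The representing probe set, 1460652_at, had log2 values of 9.65, 9.52, 9.53, 9.65 and 9.81 on arrays labelled dn-cJun 16 to 20, against 9.57, 9.19, 9.61, 9.02 and 9.52 on control arrays 11 to 15. Controls 12 and 14 were below the other 8 arrays, which spanned 9.52 to 9.81. The difference was 0.25 (SE 0.12, 95% interval -0.014 to 0.52, limma adjusted p = 0.363), and 0.18 without controls 14 and 15. Probe set 1442864_at gave -0.39 (SE 0.29, limma adjusted p = 0.704 over all probe sets), with values of 6.33 to 7.78 in the mice labelled dn-cJun and 7.03 to 7.90 in the control mice. The difference between the 2 probe sets within arrays, which would show that they moved apart, had an exact permutation p of 0.0714 (adjusted p = 0.357 over the 10 pairs).

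Ppargc1a, the coactivator that fasting and cyclic AMP are known to induce in the liver, was the member with the most probe sets. All 5 were higher in the mice labelled dn-cJun, by 0.21 to 0.47, but none passed. The representing probe set, 1456395_at, had log2 values of 8.50, 7.74, 7.77, 8.46 and 8.44 on arrays labelled dn-cJun 16 to 20, against 7.40, 7.96, 8.25, 8.09 and 8.18 on control arrays 11 to 15. Dn-cJun 16, 19 and 20 were above all controls, dn-cJun 17 and 18 were below 4 of the 5 controls, and control 11 was the lowest array. The difference was 0.21 (SE 0.21, 95% interval -0.24 to 0.65, limma adjusted p = 0.689), 0.31 without controls 14 and 15 and 0.063 without control 11.

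The largest Ppargc1a difference was that of 1437751_at, with log2 values of 8.26, 7.79, 8.54, 8.08 and 8.40 on arrays labelled dn-cJun 16 to 20, against 7.46, 7.58, 8.19, 7.60 and 7.89 on control arrays 11 to 15. Its ranges overlapped, with control 13 above 2 of the arrays labelled dn-cJun. The difference was 0.47 (SE 0.18, 95% interval 0.08 to 0.86, limma adjusted p = 0.367 over all probe sets, unadjusted exact permutation p = 0.0476). The remaining 3 gave 0.38 (1434099_at, SE 0.33), 0.24 (1434100_x_at, SE 0.26) and 0.35 (1460336_at, SE 0.27). Without control 11 these 4 further probe sets gave 0.15 (1434099_at), 0.094 (1434100_x_at), 0.40 (1437751_at) and 0.18 (1460336_at). With controls 14 and 15 left out they gave 0.60, 0.48, 0.47 and 0.47 in the same order. Since all 5 read the same gene in the same mice, their common sign is not independent support.

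**Figure D3:**
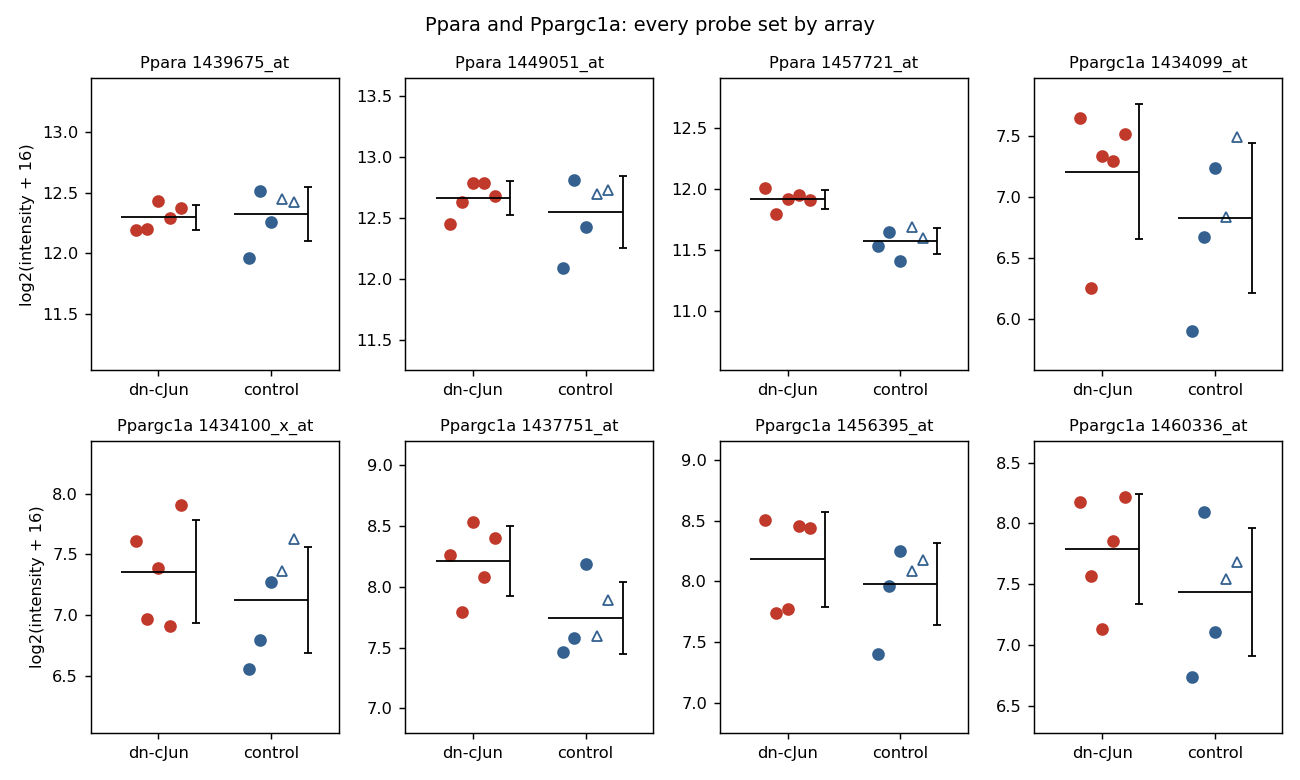
Log2(intensity + 16) after quantile normalization on each array (y axis, 2.4 log2 units per panel) for the 3 probe sets of Ppara and the 5 of Ppargc1a, with the arrays labelled dn-cJun in red and the control arrays in blue. Open triangles are control arrays 14 and 15, lines are means and bars the SD (n = 5); the groups are apart for Ppara 1457721_at, at 11.79 to 12.01 against 11.41 to 11.69, and overlap in the other 7 panels.

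After quantile normalization, control array 11 was the lowest of the 10 for 10 of the 19 member probe sets above the filter. This included the representing probe sets of 5 of the 9 genes (Ppara, Rxra, Rxrb, Nr5a2 and Ppargc1a). No other array was lowest for more than 2 of the 19. The same count over all probe sets was not made, so it is not shown to be particular to the members. In the deposited intensities control 11 was still lowest for the representing probe set of Ppara (5125.4). It was not for those of Rxra, Rxrb, Nr5a2 and Ppargc1a, with Rxrb at 874.4 against 738.2 on dn-cJun 17. Control 11 is the array with the highest median deposited intensity, 127.5. The entry for its RNA extraction names Trizol where those of the other 9 name Affymetrix. Its summed intensity of hepatocyte markers was also the lowest of the 10, at 219250. The 3 prime minus 5 prime log2 signal of the Actb control probe sets, which tracks RNA quality, was 0.47 to 0.63 on the arrays labelled dn-cJun and 0.35 to 0.45 on the control arrays, with no overlap. For Gapdh it was -0.54 to -0.35 on the arrays labelled dn-cJun and -0.47 to -0.39 on the control arrays, with overlap. The part of these properties in the members' values was not tested.

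The genes that these receptors are known to control were described by lists. Of 17 PPARalpha targets tested, 9 were higher and 8 lower in the mice labelled dn-cJun, none passed, and the median difference was 0.049. Beside this list and those below, 50.3% of all genes tested were higher and 0.777% passed. Acadm, a dehydrogenase of beta-oxidation, averaged 14.24 ± 0.15 and 13.93 ± 0.11 in mice labelled dn-cJun and control mice (SD, n = 5 each), a difference of 0.31 (SE 0.08, limma adjusted p = 0.0858), and passed in 2 of 24 alternative fits. Cpt1a, an enzyme needed for the entry of fatty acids into mitochondria, was at 0.36 (SE 0.10, limma adjusted p = 0.124). At an unadjusted limma p under 0.05, 3 of the 17 were higher and 2 lower, where 14.9% of all genes passed in either direction. On the arrays other than controls 14 and 15, 13 of 17 were higher with a median of 0.24 and still none passed, where 0.408% of all genes did. Of the 5 PPARgamma targets tested, 3 were higher and none passed (1 of 5 higher without controls 14 and 15). Plin4, a lipid droplet coat protein, was at 1.14 (SE 0.34, limma adjusted p = 0.143), and Cidec, which enlarges lipid droplets, at -0.23 (SE 0.29).

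Among 13 LXR targets, 6 were higher and 7 lower (median -0.030). Scd1 was the only one on this list that passed, where 0.777% of all genes passed in either direction and 0.432% as lower. At an unadjusted limma p under 0.05, 3 of the 13 were lower and 0 higher, where 14.9% of all genes passed in either direction. Scd1, the stearoyl-CoA desaturase, fell to 14.48 ± 0.32 in the mice labelled dn-cJun, against 15.41 ± 0.30 in the control mice (SD, n = 5 each), a difference of -0.93 (limma adjusted p = 0.0228). Of 24 alternative fits Scd1 passed in 18. It did not pass without control 13, dn-cJun 17 or dn-cJun 19 (limma adjusted p = 0.0537, 0.0571 and 0.0604). Nor did it with array medians made equal (-0.75, adjusted p = 0.0676 in limma), with each array rescaled to 1 trimmed mean (-0.72, adjusted p = 0.0638 in limma) or in eBayes without trend (adjusted p = 0.0924 in limma). Scd1 was at -1.16 on the 8 arrays other than controls 14 and 15 (limma adjusted p = 0.00685). Scd1 is also known to be controlled by SREBP1 and PPARalpha, so it does not single out a liver X receptor.

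Of 5 Nr5a2 targets tested, 3 were higher and none passed. Cyp7a1, the rate-limiting enzyme of bile acid synthesis, was at 0.39 (SE 0.25, limma adjusted p = 0.504), and Nr0b2 (SHP), a receptor without a DNA-binding domain that represses Nr5a2, at 0.24 (SE 0.16, limma adjusted p = 0.501), or 0.38 without controls 14 and 15. Of 13 targets of Esrra and Ppargc1a, 9 were higher and 4 lower (median 0.13), and none passed. Of these 13, 4 were higher and 0 lower at an unadjusted limma p under 0.05, where 14.9% of all genes passed in either direction. Pck1, a gluconeogenic enzyme, was at 0.43 (SE 0.11, limma adjusted p = 0.0858), followed by Acadm, which is also on the PPARalpha list. With controls 14 and 15 left out, 7 of these 13 were higher and the median was 0.060. In that fit 2 of the 13 had an unadjusted limma p under 0.05, where 1742 of all 12758 genes did.

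**Figure D4:**
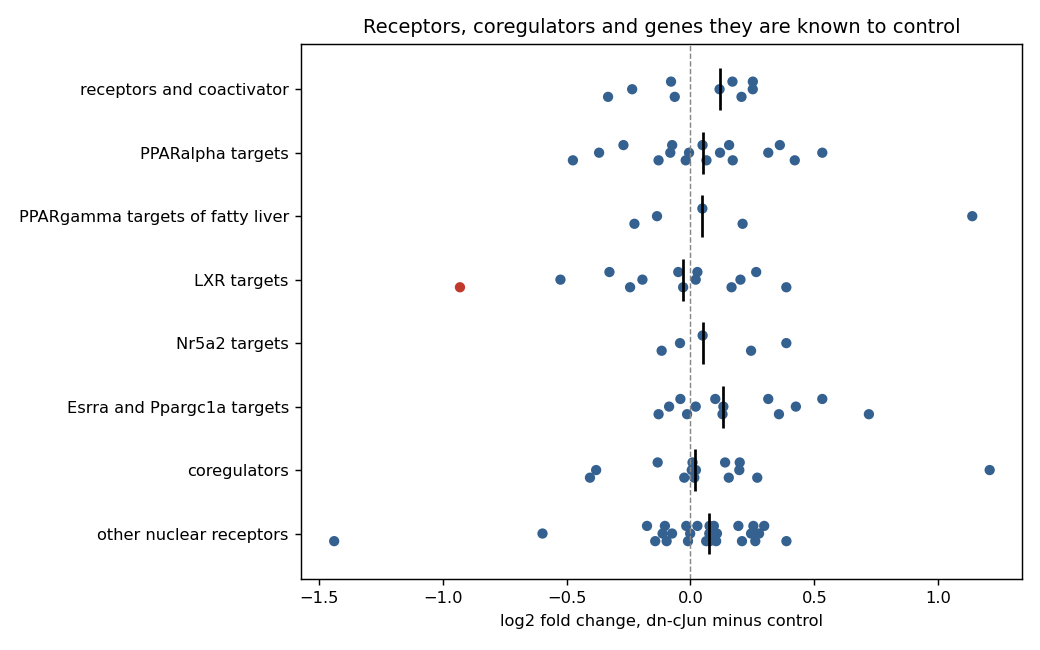
Log2 fold change, mice labelled dn-cJun minus control mice (x axis), of each tested gene in the 9 members and in 7 lists of targets, coregulators and other nuclear receptors. Points are genes, the black line is the list's median and red marks an adjusted p under 0.05, which was reached by Scd1 alone; the medians lie between -0.030 and 0.13.

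Other coregulators and receptors gave no call, where 0.777% of all genes tested passed and 50.3% were higher. Of 14 coregulators, 10 were higher and 4 lower (median 0.019). Lpin1, a phosphatidate phosphatase that also works with Ppargc1a and PPARalpha, was at 1.21 (SE 0.34, limma adjusted p = 0.127), and Ncoa2, a p160 coactivator, at 0.27 (SE 0.09, limma adjusted p = 0.160). Nrip1, a corepressor also called RIP140, was at -0.41 (SE 0.14, limma adjusted p = 0.213), but -0.21 without controls 14 and 15 (limma adjusted p = 0.534). Cited2, which binds CBP and p300, was at -0.38 (SE 0.14, limma adjusted p = 0.222).

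Of 28 other nuclear receptors tested, 17 were higher and 11 lower (median 0.076). Nr1d1 (REV-ERBalpha), a clock repressor, averaged 7.79 ± 1.01 in the mice labelled dn-cJun and 9.23 ± 0.12 in the control mice (SD, n = 5 each), with ranges that did not overlap, as for 4.22% of all genes tested. Nr1d1 differed by -1.44 (SE 0.36, limma adjusted p = 0.0935). Without dn-cJun 20, Nr1d1 was at -1.01 and passed (limma adjusted p = 0.0270), as it did in 2 of 24 alternative fits in all, whose adjusted p ran from 0.0202 to 0.196. Nr3c1, the glucocorticoid receptor, was at 0.39 (SE 0.10, limma adjusted p = 0.0935), Nr1i2, the pregnane X receptor, at 0.25 (SE 0.10, limma adjusted p = 0.236) and Esrrg, a relative of Esrra, at -0.60 (SE 0.23, limma adjusted p = 0.253). With all probe sets of a gene averaged, Nr3c1 was at -0.011 and Esrrg at 0.037, both on the other side of 0.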

How the data were processed

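Probe set intensity on a linear scale, 1 column per array for 10 arrays, was used as the authors deposited it. The sources used here do not name the software behind it. Values were taken as log2(intensity + 16) and quantile normalized over 45101 probe sets (limma 3.58.1, R 4.3.3), and 64 control probe sets were then left out. The platform annotation gave 1 gene symbol for 34945 probe sets, several for 932 and none here for 9160. A gene's probe set of highest mean stood for it, and genes whose mean was under the 40th percentile of probe sets (log2 level 6.06) were not tested. A second fit used every probe set with no filter.

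The 5 dn-cJun arrays were set against the 5 controls in limma (lmFit, eBayes, variance trend on), two-sided, adjusted by Benjamini-Hochberg at a threshold of 0.05. Because of the added 16, differences of dim probe sets are understated. Exact permutation tests ran over 252 splits, two-sided. Array number limits the precision. The fit was also run on simulated data with independent noise for each gene and array. Effects shared by the genes of an array were not simulated, and nothing is drawn from it here. Figures were drawn with matplotlib 3.10.9.

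The members, the lists and the tests were chosen with earlier results of these data known. Named were all members, of each target list the genes past the threshold or else the 2 with the smallest p, and the 4 with the smallest p of coregulators and of other receptors. The comparison of probe sets within arrays was chosen after their values were seen. Il12rb1, Prps1 and Csf1 follow a rule on likeness of profile. Alternatives varied the scaling, pseudocount, filter, choice of probe sets, variance model and arrays.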

Additional observations from a re-analysis of the deposited data

Results flagged for a closer look

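Over the 22 probe sets and both groups, 44 groups of 5 arrays were examined for an array far from the rest, and chance flags about 1 in 20 such groups. It was found in 1 of them. For Ppargc1a probe set 1434099_at, dn-cJun 17 had a log2 value of 6.25, below the next lowest array of its group at 7.29, and this gap was 0.743 of the whole range of the group. On the same probe set control 11 was lower still, at 5.90.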

How the results depend on the processing

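No paired analysis was possible because the replicate numbers do not repeat between the groups. The count of member genes past the threshold was 0 in every fit run. That of member probe sets was 1 with the filter at the 60th percentile (where 1.24% of all probe sets passed) and 1 at an adjusted p threshold of 0.1, Ppara 1457721_at both times. The count over the 7 lists, 1 in the report, was 4 with the values as deposited, 3 with array weights and 3 with a term for controls 14 and 15, where 3.85%, 1.16% and 1.22% of all genes passed. It was 0 with array medians made equal and 0 in eBayes without trend, where 0.51% and 0.0707% of all genes passed. With 1 array left out it was 0 to 2, where 0.102% to 1.56% of all genes passed. At a threshold of 0.01 it was 0 and at 0.1 it was 6, and the share of all genes at these thresholds is not given here. With the values as deposited the median of all genes shifted by -0.19, and Ppara (-0.033), Rxrb (-0.047), Ppargc1a (-0.025), Rxra 1425762_a_at (-0.062) and Nr5a2 1420410_at (-0.15) turned negative, but stayed above that shift, by 0.16, 0.15, 0.17, 0.13 and 0.048. With all probe sets of a gene averaged, Nr5a2 was at 0.0067, Esrra at -0.070, Nr3c1 at -0.011 and Esrrg at 0.037. Without controls 14 and 15 or with a term for them, Nr1h3 was at 0.0072 and 0.0071, Ppara 1439675_at at 0.051 and 0.051, and Rxra 1430497_at at -0.020 and -0.019. With 1 array left out, Ppara 1439675_at ran from -0.11 to 0.024, Rxra 1430497_at from -0.083 to 0.40 and Nr5a2 1449707_at from -0.089 to 0.48. For Rxra, at 0.25, the unadjusted exact permutation test gave p = 0.0397, and its planned adjustment over the members was not run. The cause of these changes was not tested.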
